A study of Mus musculus with 9 samples.

Results

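Sfrp2 encodes a secreted inhibitor of Wnt signalling, and Gm26771 is a non-coding gene on the opposite strand whose exons overlap the last exon of Sfrp2. Both were chosen from their counts in the sham, injury and CRC libraries of this series, so their levels and differences are given as a description, and no test of theirs is read. They are 2 of the 55228 features counted, and 1 of the 2, Sfrp2, passed the filter on low counts that left 3722 features. RNA was sequenced from the uterus of female wild-type (WT) C57BL mice, 8 weeks old, after removal of ribosomal RNA, with 3 mice in each group. The sham group had a sham operation. In the injury group the cavity of the uterus was scratched by 10 strokes of a turning 27 gauge needle, and 50 μL of PBS was given. The CRC group had the same injury and received wild-type CRCs, conditionally reprogrammed endometrial epithelial cells, in 50 μL. All uteri were taken on day 7, as whole tissue, so fewer cells of a type and less RNA per cell cannot be told apart.

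Wnt ligands bind Frizzled receptors and their LRP co-receptors, and inside the cell Dishevelled proteins then keep the destruction complex of Axin, Apc and Gsk3 from degrading β-catenin. Secreted frizzled-related proteins carry a Frizzled-like domain and bind Wnt ligands outside the cell. In the uterus Wnt signalling is needed for gland formation and for the response of the stroma to implantation.

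In the GENCODE M21 annotation of GRCm38, Sfrp2 (ENSMUSG00000027996.13) lies on the plus strand of chromosome 3, from 83766321 to 83774316. Its transcript Sfrp2-201 has 3 exons, and exon 3 holds the stop codon and 894 bases after it. Gm26771 (ENSMUSG00000097250.1), annotated as antisense, lies on the minus strand from 83773853 to 83789956, also with 3 exons. The genes share 347 exon bases, all in the 3′ UTR of Sfrp2, at 83773853 to 83774076 and at 83774194 to 83774316. This is 16.1% of the exon bases of Sfrp2 and 32.1% of those of Gm26771, which leaves 1806 and 735 bases of their own. Between both shared stretches lies intron 2 of Gm26771, 117 bases that are part of exon 3 on the Sfrp2 strand.

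The splice sites of that intron are shown because they tell the strands apart: the intron opens with GT and closes with AG on the minus strand, in capitals. The windows of 30 bases span 83774179 to 83774208 and 83774062 to 83774091 on chromosome 3 and were read from Sfrp2-201.
Gm26771 intron 2 donor: ctacgtatattacagGTaagctacaatgat
Gm26771 intron 2 acceptor: cactttttatttgAGggcatcatgcaatga

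The polyadenylation hexamer AATAAA, in capitals, occurred 2 times after the stop codon on the Sfrp2 strand and 0 times on the other. Its first copy, at 83773678 to 83773683, ends 169 bases before the first shared stretch, and its second, at 83774081 to 83774086, lies in intron 2 of Gm26771. Among 42583 protein-coding transcripts of at least 894 bases, 65.2% held AATAAA in their last 894 bases on the transcribed strand and 41.8% on the other. The windows span 83773666 to 83773695 and 83774069 to 83774098, on the plus strand.
Sfrp2 hexamer 1: aatattcaaactAATAAAatcatgactatt
Sfrp2 hexamer 2: atgatgccctcaAATAAAaagtgaatacag

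**Figure D1:**
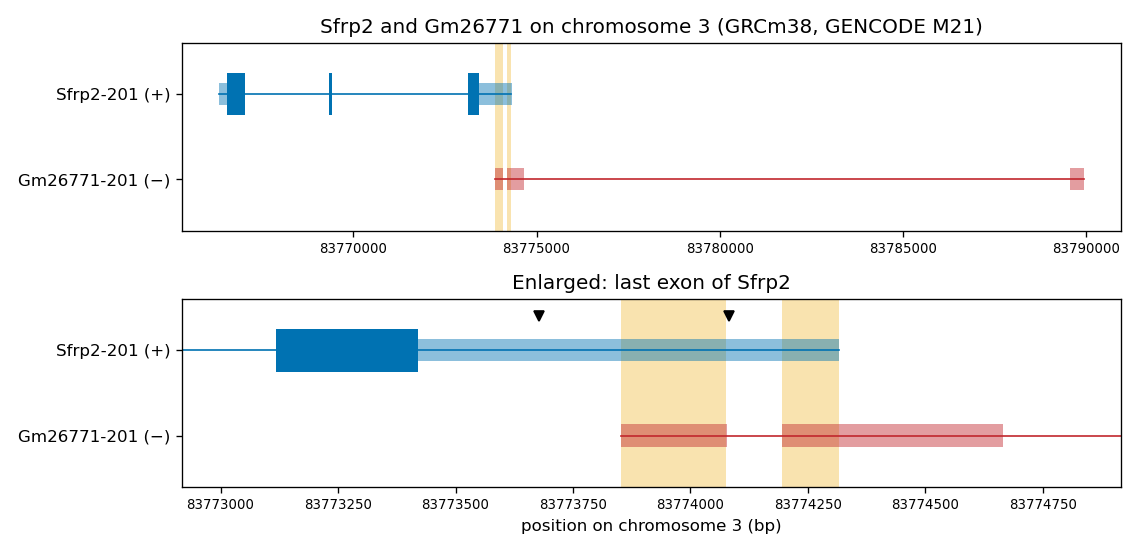
Sfrp2-201 and Gm26771-201 along chromosome 3 (position in bp, GRCm38), with coding exons as tall bars, other exon bases as low bars, introns as lines, shared exon bases shaded and AATAAA as triangles. The lower panel enlarges exon 3 of Sfrp2, where 224 and 123 bases are shared.

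Features held 280886 to 327883 counts per library, 0.776% to 0.898% of all records, and 1 count was worth 3.05 to 3.70 CPM (counts scaled to a common library size with TMM factors). Sham replicate 2 stood apart, with the largest mean distance to the other libraries, 62.6 in log2 CPM over the tested features. Sham replicate 1 had a larger mean distance to its own group, 51.5, than to all other libraries, 49.2. No other library had this order. Sham replicates 2 and 3 had 28622 and 24851 ambiguous reads beside 1751 to 6470 in the other libraries, and 3.13% and 2.52% of records not aligned beside 1.36% to 1.81%. Without sham replicate 2 the log2 ratio of CRC to sham was 1.07 for Sfrp2 and 2.57 for Gm26771, and without sham replicate 3 it was 1.20 and 2.54. The strand setting of the counting was not given in the sources used here, so it is not known which strand gave the counts named Sfrp2 and which gave those named Gm26771. The same holds for every feature named here, with exons opposite it, such as Dvl2, Ccnd1 and Ctnnb1, or without. All values are thus those counted under a name. Across 628 pairs of a coding gene and a single non-coding feature opposite it, with at least 100 counts together, the coding gene held a median of 7.74% of the pair's counts (quartiles 0.801% and 64.6%). Sfrp2 held 76.8% of its pair, and 133 pairs had a higher coding share. Actb, Gapdh and Eef1a1, looked up after their values were seen, had 6, 76 and 53 counts over the 9 libraries.

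Counts of Sfrp2 were 16, 14 and 17 in sham replicates 1 to 3, 20, 16 and 36 in the injury replicates, and 59, 28 and 32 in the CRC replicates. CRC replicate 1 was the highest of the 9 libraries and injury replicate 3 the next. On the CPM scale Sfrp2 stood at 54.8 ± 5.16 in sham, 84.0 ± 37.2 in injury and 121 ± 51.1 in CRC (mean ± SD, n = 3 each). The CRC libraries did not overlap the sham libraries, the lowest being 86.0 CPM and the highest sham 60.8 CPM, while injury overlapped both groups. With total counts as scale the injury libraries lay above sham, at 57.0 CPM or more beside 51.8 or less. Each neighbouring step in the order sham, injury, CRC was smaller than the SD of its upper group. Against sham, the fitted log2 difference of CRC was 1.14 (SE 0.38), against injury it was 0.53 (SE 0.36), and that of injury against sham was 0.61 (SE 0.40). Without CRC replicate 1 the log2 ratio of group means was 0.76 in place of 1.14 for CRC against sham and 0.13 in place of 0.53 for CRC against injury. Without injury replicate 3 it was 0.92 for CRC against injury, and 0.20 in place of 0.62 for injury against sham.

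Counts of Gm26771 were lower, with 2, 3 and 3 in the sham replicates, 1, 6 and 6 in the injured and 8, 23 and 20 in the CRC ones. The CRC libraries lay above every sham and injury library, CRC replicate 1 only narrowly, at 24.4 CPM beside 21.1 CPM in injury replicate 2. Group levels were 9.44 ± 2.56 CPM in sham, 15.2 ± 10.2 in injury and 52.0 ± 24.4 in CRC (mean ± SD, n = 3 each). Sham and injury overlapped, and their means differed by less than the SD of injury. Because Gm26771 did not pass the filter, its differences come from a fit with no filter: log2 2.46 (SE 0.77) for CRC against sham, 1.71 (SE 0.72) for CRC against injury and 0.74 (SE 0.86) for injury against sham. The ratio of CRC to sham was 5.57 with an exact 95% interval of 2.63 to 13.6, and for Sfrp2 it was 2.21 (1.57 to 3.17). That of CRC to injury was 3.43 (1.84 to 6.87) for Gm26771 and 1.44 (1.07 to 1.96) for Sfrp2. That of injury to sham was 1.63 (0.625 to 4.53) for Gm26771 and 1.53 (1.05 to 2.26) for Sfrp2. These intervals cover counting error only, not the spread between mice.

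Over the whole table, 17.7% of tested features had all CRC libraries above all sham libraries, 16.5% had all CRC above all injury libraries, and 7.9% had all injury above all sham libraries. Since these contrasts chose the pair, nothing is read from its own places in them. Scaling by all records or by total counts raised the median of all tested features in CRC against sham from 0.03 to 0.32 and 0.38 (log2), so the differences above are relative to that median.

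Per kilobase of exon, Sfrp2 was the higher in every sham and injury library, with group levels in sham of 25.5 ± 2.40 and 8.72 ± 2.37 CPM per kb for Sfrp2 and Gm26771. In injury these levels were 39.0 ± 17.3 and 14.1 ± 9.39 CPM per kb. In CRC they were 56.3 ± 23.7 and 48.1 ± 22.6 CPM per kb, closer than the SD of either. In CRC replicates 2 and 3 Gm26771 was the higher, at 65.3 and 56.4 beside 40.0 and 45.3 CPM per kb, while CRC replicate 1 had 22.5 beside 83.5. Averaged over all 9 libraries, the levels were 40.2 and 23.6 CPM per kb for Sfrp2 and Gm26771. By that average, 62.8% of the 3649 tested features with a known length were lower per kb than Sfrp2, and 46.3% were lower than Gm26771. These places hold for the average only, since Gm26771 ran from 8.72 CPM per kb in sham to 48.1 in CRC.

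The share of the pair's counts on Sfrp2 needs no scaling between libraries. It was 88.9%, 82.4% and 85.0% in the sham replicates, 95.2%, 72.7% and 85.7% after injury, and 88.1%, 54.9% and 61.5% in CRC. CRC replicate 1 thus sat among the sham and injury libraries, and CRC replicates 2 and 3 were the lowest of all 9. The 95% Wilson intervals were 78.2% to 93.8% in CRC replicate 1, 41.4% to 67.7% in replicate 2 and 48.0% to 73.5% in replicate 3, and they cover counting error only. Group means were 85.4% ± 3.29 in sham, 84.6% ± 11.3 in injury and 68.2% ± 17.5 in CRC (SD, n = 3 each), so CRC differed from injury and sham by less than its own SD. Both features together stood at 204, 157 and 159 CPM in the CRC replicates, 173 ± 26.8, a smaller SD than that of Sfrp2 alone.

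**Figure D2:**
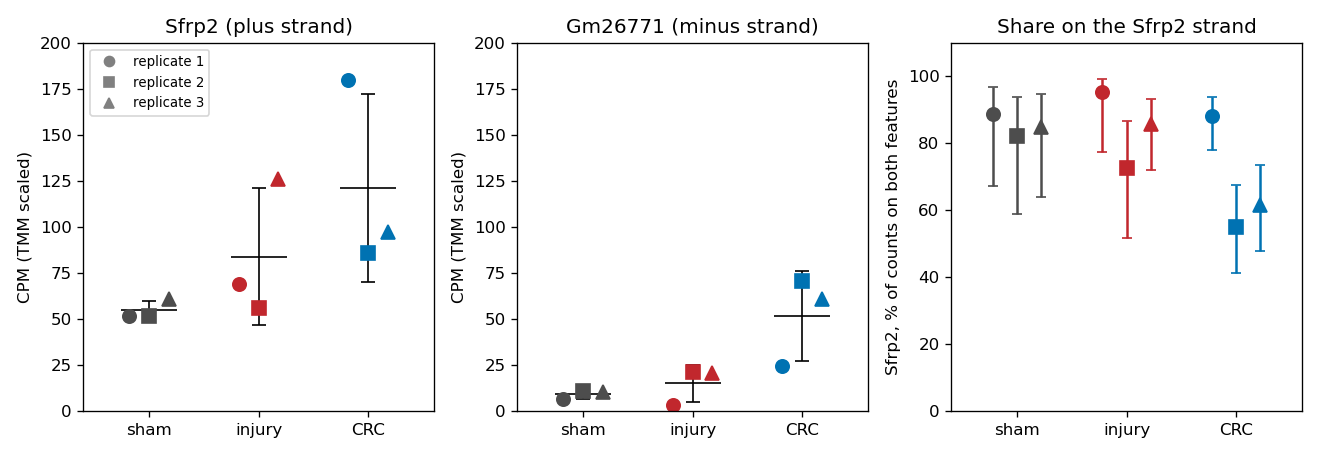
CPM of Sfrp2 and of Gm26771 and the percent of their counts on Sfrp2, by group, with 1 point per library (shape gives the replicate). Black bars show mean ± SD (n = 3), coloured bars the 95% Wilson interval of a library; CRC replicate 1 has the highest Sfrp2, 180 CPM, and the lowest Gm26771 of its group, 24.4 CPM.

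The other secreted Wnt inhibitors had few counts. Sfrp1, Sfrp4, Sfrp5 and Frzb, its relatives, had 6 counts together over the 9 libraries, and Dkk2, which blocks LRP co-receptors, had 17. Of the other 14 inhibitors 7 had 0 counts in every library and 0 were tested.

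Of 110 genes on 5 lists of the Wnt pathway, 108 were listed, 29 had 0 counts throughout and 10 were tested, Sfrp2 among them. Since Sfrp2 was chosen on these contrasts, the counts are given for the other 9. At an adjusted p under 0.05, CRC exceeded sham for 1 of the 9 and fell below it for 1, where 8.03% and 12% of all tested features were called. The median log2 difference of the 9 was 0.07 beside 0.03 over all tested features. Against injury, 0 of the 9 were higher and 1 was lower in CRC (5.1% and 7.82% of all tested features). Between injury and sham 0 of the 9 were called in either direction by edgeR (0.269% and 0.161%) and 0 by DESeq2, which called 24 of all 3722 tested features. By edgeR 1 of the 9 had an unadjusted p under 0.05, as did 468 of the 3722.

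The ligand Wnt2b had 54, 85 and 80 counts in the sham replicates, 78, 70 and 64 in the injured and 86, 103 and 76 in the CRC ones, with overlap of all groups. The receptors Fzd2 and Fzd7 had 205 and 68 counts over the 9 libraries and were not called. Neither were the transducers Dvl1 and Gsk3a or the target genes Ccnd1, a cyclin of the G1 phase, and Fosl1, an AP-1 subunit. Their log2 differences between CRC and sham ranged from -0.12 for Gsk3a to 0.98 for Dvl1.

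Dvl2, a Dishevelled protein, had 409, 470 and 424 counts in the sham replicates, 321, 263 and 364 in the injured and 220, 268 and 248 in the CRC ones. All 3 CRC libraries lay below every sham and injury library on the CPM scale. It shares 1151 exon bases with Acadvl on the other strand, which had 131 counts beside the 2987 of Dvl2. By edgeR's quasi-likelihood test, Benjamini-Hochberg adjusted, the log2 difference of CRC was -1.03 (SE 0.16, adjusted p = 2.09e-05) against sham and -0.56 (SE 0.16, adjusted p = 0.0182) against injury. The second call was lost without injury replicate 1 or 3 or CRC replicate 1 or 3, and with total counts or all records as scale.

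Apc2, a relative of the tumour suppressor Apc in the destruction complex, had 39, 52 and 39 counts in the sham replicates, 58, 47 and 34 in the injured and 91, 72 and 87 in the CRC ones. Its CRC libraries were the highest of all 9. The log2 difference between CRC and sham was 0.74 (SE 0.26, adjusted p = 0.0449 by edgeR's quasi-likelihood test, Benjamini-Hochberg adjusted), and 9 of 14 alternatives, DESeq2 among them, did not call it. Neither did the fits that left out any 1 of the injury libraries, which share the estimate of spread.

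Wnt genes other than Sfrp2 also had features opposite them, and 13 of 27 were tested. In CRC against sham 0 were higher and 3 lower, where 8.03% and 12% of all tested features were called. Against injury 1 was higher and 2 lower (5.1% and 7.82% of all tested features). LTO1, a factor for iron-sulfur cluster transfer that lies opposite Ccnd1, had 447, 403 and 434 counts in the sham replicates, 404, 338 and 390 in the injured and 190, 228 and 224 in the CRC ones. The CRC libraries were the lowest, with a log2 difference of -1.19 against sham (adjusted p = 7.58e-07) and -1.01 against injury (adjusted p = 1.71e-05), both by edgeR's quasi-likelihood test, Benjamini-Hochberg adjusted. The feature 9130221H12Rik, opposite Gsk3a, was lower in CRC by the same test from edgeR, with log2 differences of -0.66 (adjusted p = 0.00287) and -0.69 (adjusted p = 0.00284). The first of these calls was lost with total counts or all records as scale. Ulk4, opposite Ctnnb1, was lower against sham alone, at -0.59 (adjusted p = 0.0402 by edgeR), and 11 of 14 alternatives did not call it.

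Gm48159 lies opposite Rspo3, a secreted activator of Wnt signalling, and had 25, 43 and 15 counts in the sham replicates, 9, 12 and 16 in the injured and 63, 60 and 38 in the CRC ones. Like Gm26771, it is a non-coding feature with its highest mean in CRC, and its CRC and injury libraries did not overlap. Its log2 difference between CRC and injury was 1.92 (SE 0.39, adjusted p = 0.000852 by edgeR's quasi-likelihood test, Benjamini-Hochberg adjusted), and between CRC and sham it was 0.75 (adjusted p = 0.137). The features opposite Dvl2, Wnt5a, Csnk1e, Csnk1d, Ctnnbip1, Dvl1, Kremen2, Fzd5 and Bcl9l were not called in any comparison.

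Within 500 kb of Sfrp2 the annotation lists 15 of the features, its own pair included, and 10 of the rest had at most 1 count. Trim2, a ubiquitin ligase gene 386 kb away on the minus strand, had 16, 24 and 17 counts in the sham replicates, 11, 9 and 9 in the injured and 6, 4 and 2 in the CRC ones. The groups did not overlap and CRC was lowest, opposite in direction to Sfrp2. By edgeR's quasi-likelihood test, Benjamini-Hochberg adjusted, its log2 difference was -2.41 (SE 0.57, adjusted p = 0.00261) between CRC and sham and -1.44 (SE 0.60, adjusted p = 0.127) between CRC and injury. Tlr2, a receptor for bacterial lipoproteins, had 25 counts and was not tested, and Gm6525, within the Trim2 locus, had 68 and was not called.

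Likeness of pattern was measured as the root-mean-square difference of log2 CPM, each feature centred on its own mean over the 9 libraries. Among those closest to Sfrp2 were Il18bp, which binds interleukin 18, at 0.241, Ypel1 at 0.262, Lrfn4 at 0.302 and the pseudogene Gm17213 at 0.303, where the median over 3242 features was 0.692. Il18bp had 25, 18 and 33 counts in the sham replicates, 29, 28 and 45 in the injured and 73, 56 and 57 in the CRC ones. Closest to Gm26771 were Gpr61 at 0.408, Ldah at 0.422, Sorbs2, an adaptor of the actin cytoskeleton, at 0.427, Atxn1 at 0.439 and Gpr182 at 0.444, with a median of 1.02 over 3243 features. Gpr61, an orphan receptor, had 9, 7 and 7 counts in the sham replicates, 1, 10 and 13 in the injured and 12, 29 and 25 in the CRC ones. Sfrp2 and Gm26771 differed from each other by 0.838, above the median of 0.692 for Sfrp2 and below that of 1.02 for Gm26771.

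Sfrp2 is known from fibroblasts. Of 22 stroma markers 8 were tested, and 5 of them, all collagen chains, were lower in CRC than in sham and 0 higher, where 12% and 8.03% of all tested features were called. Against injury 3 were lower (7.82% of all tested features), and the median log2 differences of the 8 were -2.28 and -1.26. Pi16, a marker of adventitial fibroblasts, was not called and had 4, 3 and 3 counts in the sham replicates, 2, 5 and 13 in the injured and 7, 19 and 15 in the CRC ones. Its CRC libraries lay above sham, as held for 17.7% of all tested features. The same held for Thy1 and Hoxa10, which were not tested, at few counts. Thy1 had 0, 0 and 0 counts in the sham replicates and 3, 2 and 2 in the CRC ones. Hoxa10 had 4, 0 and 0 in the sham replicates and 5, 9 and 6 in the CRC ones. Pgr and Hoxa11 had log2 differences of -0.08 and -0.15 between CRC and sham. Summed counts of all 22 stroma markers were 246, 474 and 428 in the sham replicates, highest in the libraries with the most ambiguous reads, 220, 257 and 230 in the injured and 182, 160 and 192 in the CRC ones. Col6a2, a chain of collagen VI, was the most abundant, with 94, 241 and 163 counts in the sham replicates, 85, 105 and 99 in the injured and 26, 24 and 43 in the CRC ones. Pdgfrb, Fbln1 and Mfap5 had 0 counts, Dcn 4 and Pdgfra 19, so defining markers of uterine stroma were at or near 0 under their own names.

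Of 10 smooth muscle markers 3 were tested and 1, Myh11, the smooth muscle myosin, was lower in CRC than in sham, as were 12% of all tested features, with summed levels of 500 ± 86.5, 331 ± 28.4 and 273 ± 46.2 CPM in sham, injury and CRC. Epithelial markers summed to 69 counts, Muc1 leading with 27, and Cdh1, Foxa2, Wfdc2 and Sprr2f were at 0. Their sums were 17, 11 and 8 counts in the sham replicates, 3, 7 and 4 in the injured and 7, 8 and 4 in the CRC ones, or 41.5 ± 13.3, 16.4 ± 7.38 and 19.4 ± 6.42 CPM. Sham was thus the highest group by sum. Muc1 ran the other way, at 6.75, 9.34 and 13.2 CPM in sham, injury and CRC, with overlap of all groups. Endothelial markers summed to 129 counts, or 48.8 ± 27.9, 40.9 ± 10.9 and 52.0 ± 19.4 CPM in the same order, levels that differed by less than the SD of CRC. Emcn, a sialomucin of vessels, led them with 2, 3 and 3 counts in the sham replicates, 4, 4 and 4 in the injured and 8, 13 and 7 in the CRC ones. It was not tested, and its CRC libraries lay above all others, as those of Gm26771 did. Some other members had lower means in CRC than in sham, at few counts and with overlap of these groups. Pecam1 had 9, 0 and 6 counts in the sham replicates, 2, 1 and 2 in the injured and 1, 5 and 0 in the CRC ones. Its means were 16.9, 5.82 and 6.14 CPM. Kdr, at 4.32, 1.16 and 1.02 CPM, had 6 counts in all, 4 of them in sham replicate 1. Tek had 4, 0 and 0 counts in the sham replicates, 1, 6 and 3 in the injured and 0, 0 and 1 in the CRC ones. Its means were 4.32, 11.7 and 1.02 CPM. Injury replicate 1 and CRC replicate 3 had 1 count each, so no gap in counts separated CRC from injury. Flt1 had its highest mean in CRC, 14.3 CPM beside 12.7 CPM in sham. Mesothelial markers summed to 33 counts, led by Lrrn4 with 18. Of 503 leukocyte counts 496 were on Csf1r, the receptor of a macrophage growth factor, and Ptprc, Adgre1 and Lyz2 were at 0. Of 13 leukocyte markers 1, Csf1r, was tested. It was called lower in CRC than in sham, as were 12% of all tested features, and was not called against injury. The leukocyte sum was 246 ± 34.5, 204 ± 27.5 and 120 ± 20.0 CPM in sham, injury and CRC. Proliferation genes summed to 406 counts, 327 of them on Prc1, which was not called, with 146 ± 24.7, 171 ± 37.9 and 135 ± 25.4 CPM by group. The part of these cell types in the levels of Sfrp2 and Gm26771 was not tested.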

How the data were processed

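The authors deposited whole-number counts of reads per feature for each of 9 uterus libraries, not normalized, with 5 further rows of uncounted reads that held over 99% of records and were left out of library sizes. Alignment used HISAT2 2.1.0 and assembly StringTie 2.1.1 according to the submitters' processing notes. The count files carry the name and the further rows of HTSeq, whose version and strand setting were not given in the sources used here. Positions came from GENCODE M21; the paper names version 23, not used here.

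Counts were fitted with edgeR 4.0.16 under R 4.3.3 and limma 3.58.1 (filterByExpr, TMM, robust quasi-likelihood test, all 9 libraries, Benjamini-Hochberg adjustment, called at adjusted p under 0.05), with DESeq2 1.42.0 as an alternative. The fit was tested on simulated data. Figures used Python 3.11.15 and matplotlib 3.10.9. Named were Sfrp2 and Gm26771, tested Wnt list genes and features opposite them, tested features within 500 kb, the 5 features most like each (mean of at least 10 counts per library, prior count 2; 1 is not reported here) and leading markers. The members and lists were chosen with earlier results of these data known. The Wnt count less Sfrp2 was added after the results were seen. P-values measure the spread between mice of 1 experiment.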

Additional observations from a re-analysis of the deposited data

How the results depend on the processing

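The group log2 ratios of Sfrp2 and Gm26771 moved by less than their pooled SD of log2 CPM, 0.45 and 0.65, under each alternative run. The mean share in CRC, 68.2%, was 58.2% without CRC replicate 1 and 74.8% without CRC replicate 2. The shares moved by less than 1 SD of their group. Leaving out 1 of 3 libraries cannot move a group mean by more, so no stability is read from this. Gm26771 has no value from DESeq2. Without 1 library each, the log2 ratio of CRC to sham was 0.76 to 1.35 for Sfrp2 and 2.19 to 2.81 for Gm26771. For CRC against injury it was 0.13 (without CRC replicate 1) to 0.92 (without injury replicate 3) for Sfrp2 and 1.29 to 2.11 for Gm26771. For injury against sham it was 0.20 (without injury replicate 3) to 0.85 (without injury replicate 2) for Sfrp2, and for Gm26771 0.38 without injury replicate 3, 0.39 without injury replicate 2 and 1.16 without injury replicate 1, in place of 0.69.

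The planned count of Wnt genes called in CRC against sham ran over the whole lists, which hold Sfrp2. Because Sfrp2 was chosen on this contrast, the count is given less Sfrp2, an alternative added after seeing the data. It was 2, Dvl2 and Apc2, and 1 with DESeq2's Wald test. With no filter Dvl2 was called and Apc2 was not. Without 1 library each, Dvl2 was called every time. Apc2 and Vangl1 joined it without sham replicate 2 and in no other such fit. Over the whole lists, the 1 called in CRC against injury became 2 with the compared groups alone. It became 0 to 1 without 1 library (0 without injury replicate 1 or 3 or CRC replicate 1 or 3). The 0 called in injury against sham became 0 to 1, with 1 without sham replicate 1, Dvl2.

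The 16 features called in injury against sham were 6 with both groups alone and 3 to 154 without 1 library: 154 without sham replicate 1, 3 without sham replicate 3, and 8, 3 and 4 without injury replicates 1, 2 and 3. The causes were not tested. With the replicate block 5 features were called. Deviations of libraries with the same number correlated from -0.096 to 0.080. Such weak correlations cannot tell whether mice with the same number were paired. Dvl2, LTO1 and Trim2 kept their calls in CRC against sham under each alternative that gave a value, where libraries left out were sham or CRC. Of 108 Wnt genes 73 had under 10 counts over the 9 libraries and did not enter the fit; the cause of the low counts was not tested.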
